A study of Homo sapiens with 6 samples.

Results

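The NF-κB pathway was followed in LNCaP cells after knockdown of TCTP through transcripts of 44 genes. The genes encode subunits, inhibitors, kinases, adaptors, receptors and inflammatory targets of the pathway. The genes were listed by symbol from knowledge of the pathway, with earlier results of these data known. A probe was paired with 42 of them among 18665 genes with a probe. TRAF2, a ubiquitin ligase adaptor of TNF receptors, and IRAK4, a kinase of the interleukin-1 receptor complex, are not analysed here. LNCaP is an androgen-responsive line from a lymph node metastasis of a prostate cancer. The cells were grown with serum, changed to medium without serum and antibiotics, and transfected with 100 nM siRNA for 72 h, with siRNA against TCTP in 3 samples and siRNA against luciferase (Luc), which human cells lack, in 3 samples as the control. A single siRNA sequence was used for each target and no array of untransfected cells was used here, so that an effect of the sequence and of the loss of TCTP cannot be told apart. The RNA of each sample was hybridised to 1 Illumina HumanWG-6 v3 array, and the question was which genes TCTP affects in prostate cancer cells.

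NF-κB is a family of dimers of Rel proteins that IκB proteins hold in the cytoplasm of resting cells. When TNF, interleukin-1 or Toll-like receptors are engaged, TRAF and IRAK proteins recruit the kinase TAK1 and the IKK complex, which marks IκB for degradation, and the freed dimers enter the nucleus. There they turn on cytokine, chemokine and adhesion genes as well as IκBα and A20, which end the response. A slower route through NIK and IKKα processes the NFKB2 product. Among prostate cancer lines LNCaP is known for low basal NF-κB activity compared with androgen-independent lines.

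TPT1, which encodes TCTP, has 2 probes, and the dimmer of them, ILMN_1789614, gave 12.25, 12.47 and 12.39 log2 with TCTP siRNA and 12.95, 13.17 and 13.23 with Luc siRNA, without overlap. Its log2 change was -0.75, with an adjusted p of 0.00331 from limma in a fit of every kept probe, of which 1.93% passed an adjusted p under 0.05. On the brighter probe ILMN_2094718 it was 13.92, 13.83 and 14.05 with TCTP siRNA and 14.22, 13.98 and 14.17 with Luc siRNA, where the groups overlapped (log2 change -0.19, adjusted p = 0.471). In the test by gene used below, the brightest kept probe stands for a gene. There TPT1 itself did not pass (adjusted p = 0.433 from limma). The arrays had between 12828 and 13741 of 48803 probes with a detection p under 0.01. The 8 luminal prostate markers with a probe, among them KLK3, KRT8 and TMPRSS2, were detected on all 6 arrays. Of the markers of other cell types with a probe, 8 of 9 for leukocytes, 3 of 4 for endothelium and 6 of 6 for fibroblasts were detected on none, the exceptions being CD68 and VWF.

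Of the 42 NF-κB pathway genes with a probe, 18 were detected on all 6 arrays, 6 on between 1 and 5 arrays and 18 on none. A gene entered the test if any probe of it was detected (p under 0.01) in 3 or more of the 6 samples, and its brightest such probe stood for it, which left 21 genes of the pathway among 8968 genes. The number of pathway genes detected per array was 19, 18 and 24 with TCTP siRNA and 19, 20 and 20 with Luc siRNA. TCTP siRNA replicate 3 was the highest of the 6, and the arrays of the groups overlapped. Each tested gene was detected on at least 1 array of each group.

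**Figure D1:**
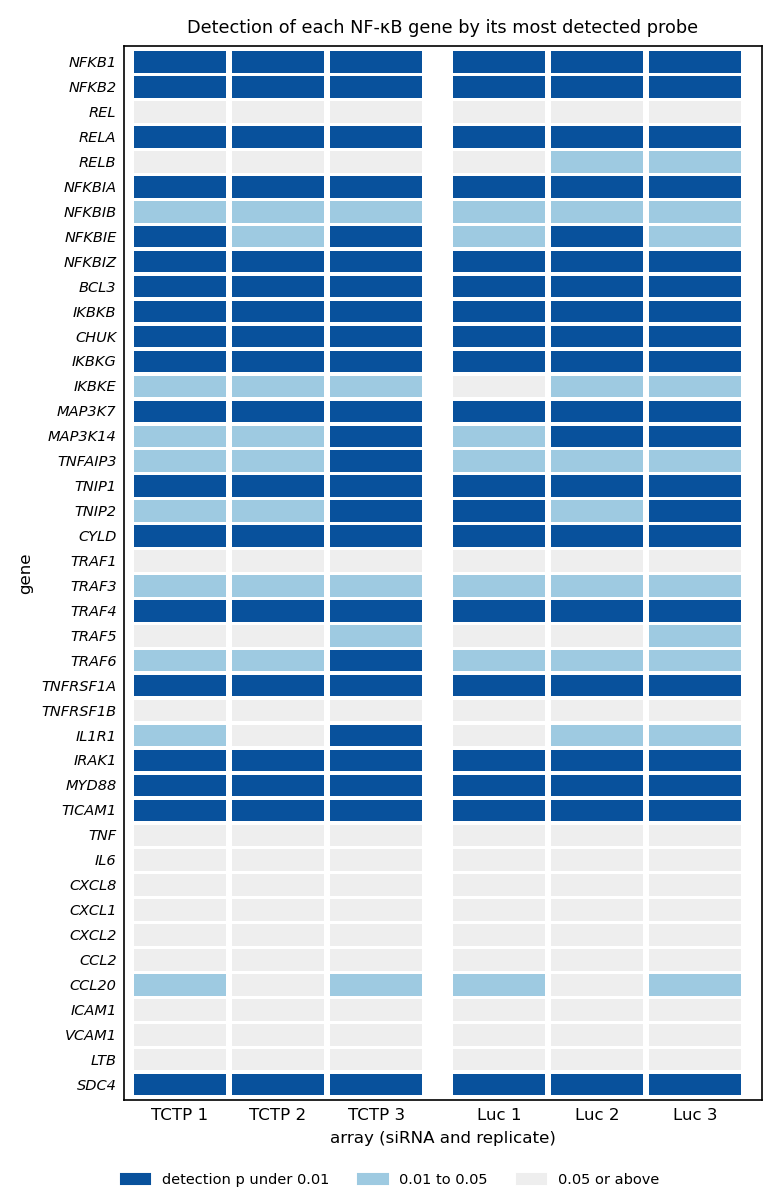
Detection of the 42 NF-κB pathway genes with a probe (rows) on each array (columns, TCTP siRNA left and Luc siRNA right), by the probe of the gene that was detected on most arrays. Dark cells have a detection p under 0.01, light blue cells lie between 0.01 and 0.05 and grey cells lie at 0.05 or above. The signalling genes are mostly dark in both groups, while the cytokine, chemokine and adhesion genes other than SDC4 have no dark cell.

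None of the 21 tested genes differed between TCTP siRNA and Luc siRNA at a Benjamini-Hochberg adjusted p under 0.05 from limma, compared with 2.55% of all genes tested. At an adjusted p under 0.10, which 4.77% of all genes passed, there was 1 gene, NFKBIZ. At an unadjusted p under 0.05 there was also 1 gene (4.76%), NFKBIZ, against 15.6% of all genes. The groups did not overlap for 3 of the 21 genes (14.3%), NFKBIZ, NFKBIE and IKBKB, against 21.2% of all genes, and the signal was higher after TCTP siRNA in these 3. Over the 21 genes the log2 change was above 0 for 14 and below 0 for 7 (66.7% above, against 50.3% of all genes). Their median change was 0.051 log2 units, against 0.0011 over all genes, with a median standard error of 0.11 per gene. These counts do not cover CCL5, CXCL10 and SOD2, which the list leaves out and which each passed an adjusted p under 0.05 from limma. The list was made with earlier results of these data known. The arrays measured transcripts only. Degradation of IκB, activity of the IKK complex and entry of the dimers into the nucleus were not measured. The counts therefore do not show whether the activity of the pathway changed. In bulk RNA less transcript per cell and fewer cells that make it cannot be told apart. The samples of a group are labelled as biological replicates without a word on cultures or days, so that the p-values measure only the spread between these samples.

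The intervals show how precisely the change of each gene, taken on its own, was measured on these arrays. The 95% interval of the log2 change lay within 0.5 units of 0 for 19 of the 21 genes (90.5%, against 83.6% of all genes tested), the exceptions being NFKBIZ and TRAF4. For all 21 it lay within 1 unit, with bounds between -0.35 and 0.57 log2. No background was subtracted from these intensities, which compresses the changes of dim probes. With background correction by neqc, 17 of the 21 intervals lay within 0.5 units and 21 within 1 unit, with bounds between -0.43 and 0.68 log2. Leaving out 1 array raised or lowered the log2 change by a factor over 1.5, or turned its sign, for 18 of the 21 genes. The exceptions were NFKBIZ, IKBKB and TNFRSF1A. A change near 0 moves by such a factor with a small difference in value, as for RELA (-0.0054, and between -0.0495 and 0.0391 with 1 array left out). No gene passed the test with 1 array left out (lowest adjusted p = 0.0771 from limma, for NFKBIZ).

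**Figure D2:**
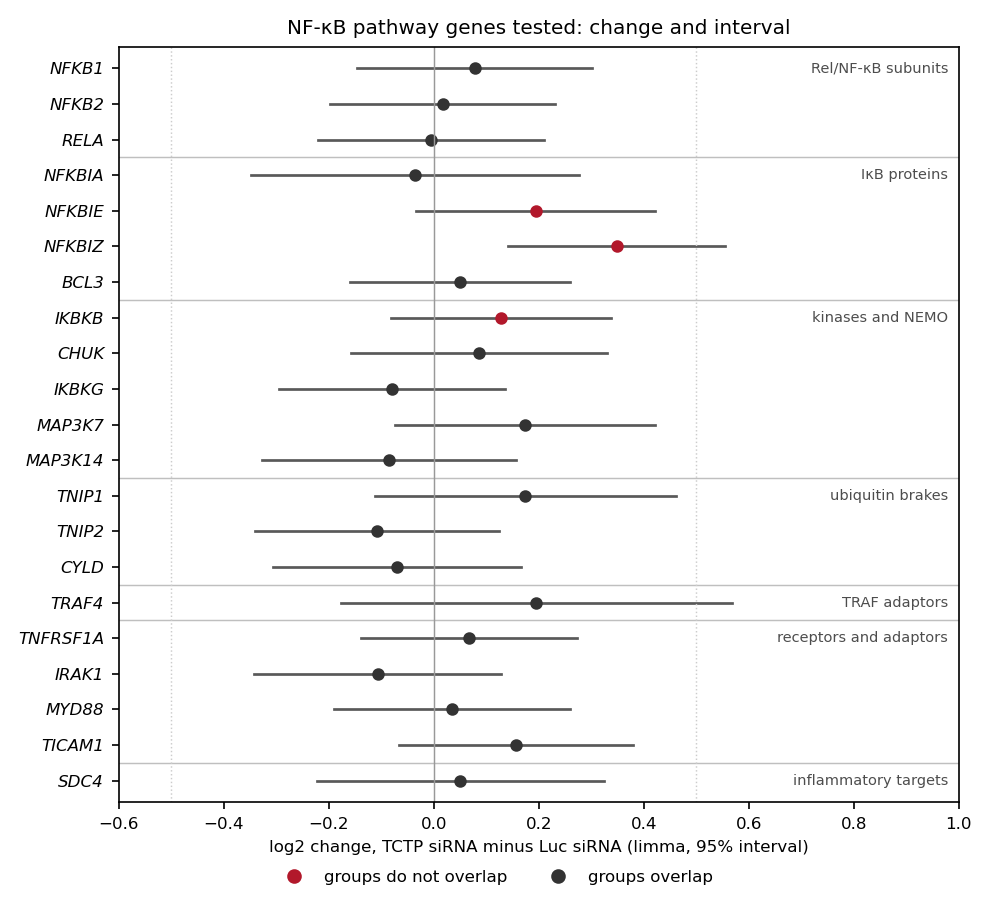
Log2 change of each of the 21 tested NF-κB pathway genes, TCTP siRNA minus Luc siRNA, with its 95% interval from limma (bars) and dotted lines at 0.5 units, ordered by role. Points in red mark the 3 genes whose groups did not overlap. The interval of NFKBIZ is the only one that leaves out 0, and those of NFKBIZ and TRAF4 reach beyond 0.5.

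NF-κB dimers bind DNA at κB motifs, and promoter sequences are printed to show which of the genes hold such a motif near the start site. In the windows from 250 bases before to 50 bases after each start site in RefSeq (GRCh38.p14), a κB motif (GGGA, any 1 base, then TTTCC, or the reverse complement GGAAA, any 1 base, then TCCC) was found for 14 of the 40 genes with a promoter in that table (35.0%), against 0.678% of all 27305 genes. Counted by window it was in 196 of 35116 (0.558%). The list was made from knowledge of the pathway and includes genes known as NF-κB targets. Its larger share follows from that choice and is not a result of these arrays. Of the 14 genes 7 were tested, namely NFKB1, NFKB2, NFKBIA, NFKBIZ, TNIP1, CYLD and TICAM1, and the other 7 were REL, NFKBIB, TNFAIP3, IL6, CXCL1, CXCL2 and LTB. The log2 changes of the 7 tested genes lay between -0.07 and 0.35 with a median of 0.08, and the median of the 12 tested genes with a promoter but no match was 0.04. The start of the match lay between 21 and 223 bases before the start site. The stretches before the start sites of NFKBIZ and NFKBIA, the tested IκB genes with the largest and the smallest change in size, and short windows of some of the other genes follow, 5′ to 3′ on the strand of the gene, with the match in capitals.
NFKBIZ (chr3:101827740-101827989, plus strand): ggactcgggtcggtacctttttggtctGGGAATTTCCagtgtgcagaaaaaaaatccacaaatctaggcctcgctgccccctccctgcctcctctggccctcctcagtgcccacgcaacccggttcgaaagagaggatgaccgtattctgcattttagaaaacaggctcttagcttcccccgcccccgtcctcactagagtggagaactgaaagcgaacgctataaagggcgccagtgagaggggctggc
NFKBIA (chr14:35404750-35404999, minus strand): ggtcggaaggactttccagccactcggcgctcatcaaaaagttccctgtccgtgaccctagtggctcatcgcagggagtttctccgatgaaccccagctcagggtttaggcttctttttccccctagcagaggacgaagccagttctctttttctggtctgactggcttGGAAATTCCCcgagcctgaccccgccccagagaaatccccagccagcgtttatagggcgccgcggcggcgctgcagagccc
NFKB1 (chr4:102501300-102501329, plus strand): cgacgtcagtGGGAATTTCCagccaggaag
NFKB2 (chr10:102395674-102395703, plus strand): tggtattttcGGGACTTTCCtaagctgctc
TNIP1 (chr5:151081057-151081086, minus strand): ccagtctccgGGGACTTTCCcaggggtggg
CYLD (chr16:50741887-50741916, plus strand): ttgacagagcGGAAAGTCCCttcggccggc
TICAM1 (chr19:4831813-4831842, minus strand): gggcgacccgGGGACTTTCCcggtgctgcg
TNFAIP3 (chr6:137867182-137867211, plus strand): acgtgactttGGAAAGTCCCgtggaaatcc
IL6 (chr7:22727117-22727146, plus strand): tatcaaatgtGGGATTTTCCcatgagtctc
CXCL1 (chr4:73869304-73869333, plus strand): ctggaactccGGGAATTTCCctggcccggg
CXCL2 (chr4:74099254-74099283, minus strand): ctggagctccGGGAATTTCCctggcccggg

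The match in NFKBIA lies 81 bases before the start site and that in NFKBIZ 223 bases before it. The windows of CXCL1 and CXCL2, genes of a pair of closely related chemokines, differ at 1 of 30 bases. A match is a sequence and not a measured binding site, and no array measured binding. Other forms of the κB motif and sequence outside the windows were not searched, so that a gene without a match may still hold a κB motif.

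Of the Rel subunits, NFKB1, NFKB2 and RELA were detected on all 6 arrays, while both probes of REL and the probe of RELB were detected on none. NFKB1, the precursor of p50, had 10.51, 10.24 and 10.43 log2 with TCTP siRNA and 10.34, 10.35 and 10.26 with Luc siRNA. The lowest array was TCTP siRNA replicate 2 and the groups overlapped (log2 change 0.08, 95% interval -0.15 to 0.30, adjusted p = 0.77 from limma). RELA, the p65 subunit that carries the transactivation domain, had 6.86, 6.95 and 6.77 with TCTP siRNA and 6.79, 6.91 and 6.91 with Luc siRNA. Its log2 change of -0.0054 was the smallest in size of the 21 genes, with an interval of -0.22 to 0.21. NFKB2, the precursor of p52, had 6.22, 6.17 and 6.21 with TCTP siRNA and 6.25, 6.07 and 6.24 with Luc siRNA, a log2 change of 0.017 with an interval of -0.20 to 0.23. Another probe of NFKB2 was detected on 3 of the 6 arrays and had overlapping groups, and its remaining probe was detected on none.

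Among the IκB family NFKBIZ had the lowest p of the tested genes. It encodes IκBζ, an atypical nuclear IκB protein that Toll-like receptor and interleukin-1 signals induce and that helps p50 to activate secondary response genes such as IL6. On the probe ILMN_1719695 it had 6.80, 6.77 and 6.78 log2 with TCTP siRNA and 6.48, 6.46 and 6.36 with Luc siRNA. All 3 arrays of TCTP siRNA lay above all 3 of Luc siRNA, with means of 6.78 ± 0.02 and 6.43 ± 0.06 (SD, n = 3 each). The log2 change was 0.35 (standard error 0.10, 95% interval 0.14 to 0.55), which is 1.27-fold, and it did not pass the test over all genes (adjusted p = 0.0764 from limma, between 0.0534 and 0.302 over the 19 alternatives). A further probe, ILMN_1770260, was detected on none of the arrays at a detection p under 0.01 and gave 5.50, 5.67 and 5.42 with TCTP siRNA and 5.32, 5.41 and 5.33 with Luc siRNA.

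NFKBIA, which encodes IκBα and is the best known feedback target of NF-κB, had 10.82, 10.97 and 10.73 log2 with TCTP siRNA and 10.50, 11.09 and 11.04 with Luc siRNA. The spread between the Luc siRNA arrays was the wider, with replicate 1 as the lowest of the 6 arrays, and the TCTP siRNA arrays lay inside it. The means were 10.84 ± 0.12 and 10.88 ± 0.33 (SD, n = 3 each), and the log2 change was -0.04 (95% interval -0.35 to 0.28, adjusted p = 0.933 from limma). Without Luc siRNA replicate 1 it was -0.22, and without Luc siRNA replicate 2 it was 0.07, neither of which passed the test.

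NFKBIE, which encodes IκBε, was close to the limit of detection, with 2 arrays of TCTP siRNA and 1 of Luc siRNA detected. Its values were 6.00, 6.02 and 6.24 with TCTP siRNA and 5.80, 5.97 and 5.92 with Luc siRNA, a log2 change of 0.19 (95% interval -0.03 to 0.42, adjusted p = 0.416 from limma). The groups did not overlap, but the gap between them was smaller than the spread within each, and without TCTP siRNA replicate 3 the log2 change was 0.12. BCL3, an atypical IκB protein that binds p50 and p52 dimers in the nucleus, had a log2 change of 0.05 (95% interval -0.16 to 0.26). The probes of NFKBIB, which encodes IκBβ, were detected on none of the arrays.

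Of the kinases and the scaffold of the IKK complex, IKBKB, CHUK and IKBKG were detected on all 6 arrays. IKBKB, the catalytic subunit IKKβ of the canonical route, had 7.46, 7.44 and 7.45 log2 with TCTP siRNA and 7.24, 7.31 and 7.41 with Luc siRNA. The TCTP siRNA arrays lay above the Luc siRNA arrays by a margin smaller than the spread of the Luc siRNA arrays, and the log2 change of 0.13 did not pass the test (95% interval -0.08 to 0.34, adjusted p = 0.572 from limma). CHUK, which encodes IKKα, had 7.54, 7.34 and 7.57 with TCTP siRNA and 7.49, 7.49 and 7.21 with Luc siRNA, with overlapping groups and a log2 change of 0.09. IKBKG, which encodes the scaffold NEMO and has a near-identical pseudogene that may share its probe, had 8.61, 8.72 and 8.68 with TCTP siRNA and 8.84, 8.65 and 8.76 with Luc siRNA, a log2 change of -0.08.

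MAP3K7, which encodes TAK1, the kinase that activates the IKK complex, had 8.06, 7.85 and 8.23 log2 with TCTP siRNA and 7.80, 7.96 and 7.87 with Luc siRNA. The groups overlapped through TCTP siRNA replicate 2 and the log2 change was 0.17 (95% interval -0.07 to 0.42, adjusted p = 0.513 from limma). It was 0.27 without TCTP siRNA replicate 2 and 0.08 without TCTP siRNA replicate 3. Another probe of MAP3K7, ILMN_2379326, was detected on none of the arrays at a detection p under 0.01 and gave 5.93, 5.79 and 5.90 with TCTP siRNA and 5.70, 5.60 and 5.68 with Luc siRNA, without overlap. MAP3K14, which encodes NIK, the kinase of the non-canonical route, was detected on 1 array of TCTP siRNA and 2 of Luc siRNA and had a log2 change of -0.09. The IKK-related kinase gene IKBKE was detected on none of the arrays.

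Of the proteins that restrain the pathway at its ubiquitin chains, none passed the test. TNIP1, which encodes the A20-binding protein ABIN-1, had 7.91, 7.37 and 7.83 log2 with TCTP siRNA and 7.51, 7.49 and 7.58 with Luc siRNA. TCTP siRNA replicate 2 was the lowest of the 6 arrays and replicates 1 and 3 were the highest (log2 change 0.17, 95% interval -0.11 to 0.46, adjusted p = 0.574 from limma). Without TCTP siRNA replicate 2 the log2 change was 0.34 (adjusted p = 0.0867). CYLD, a deubiquitinase that removes lysine-63-linked and linear chains, had 6.13, 6.30 and 6.38 with TCTP siRNA and 6.35, 6.46 and 6.21 with Luc siRNA, a log2 change of -0.07. TNIP2, which encodes ABIN-2, was detected on 1 array of TCTP siRNA and 2 of Luc siRNA, with a log2 change of -0.11. TNFAIP3, which encodes A20, had 5.85, 5.90 and 5.92 with TCTP siRNA and 5.89, 5.89 and 5.82 with Luc siRNA, and was detected on 1 array, TCTP siRNA replicate 3.

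Of the 5 TRAF adaptor genes with a probe, TRAF4 was the only one tested. It had 7.37, 7.29 and 6.64 log2 with TCTP siRNA and 6.79, 6.77 and 7.16 with Luc siRNA. TCTP siRNA replicates 1 and 2 and Luc siRNA replicate 3 were high and the other 3 arrays were low, so that the spread within the groups exceeded the difference of their means. The log2 change was 0.20 (standard error 0.17, 95% interval -0.18 to 0.57, adjusted p = 0.635 from limma). Without TCTP siRNA replicate 3 it was 0.42 (adjusted p = 0.107), and without TCTP siRNA replicate 1 it was 0.06. TRAF6, the ubiquitin ligase of the interleukin-1 and Toll-like receptor route, was detected on 1 array, and TRAF1, TRAF3 and TRAF5 on none.

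Receptors and their adaptors also gave intervals on both sides of 0. TNFRSF1A, the TNF receptor present on most cells, had 8.40, 8.46 and 8.39 log2 with TCTP siRNA and 8.32, 8.33 and 8.40 with Luc siRNA, with a log2 change of 0.07 (95% interval -0.14 to 0.27). MYD88, the adaptor of interleukin-1 and most Toll-like receptors, had 7.84, 7.65 and 7.63 with TCTP siRNA and 7.65, 7.77 and 7.59 with Luc siRNA, a log2 change of 0.04. TICAM1, which encodes TRIF, the adaptor of TLR3, had 9.52, 9.26 and 9.44 with TCTP siRNA and 9.28, 9.21 and 9.26 with Luc siRNA. Its groups overlapped, as TCTP siRNA replicate 2 lay between the Luc siRNA arrays, and the log2 change was 0.16 (95% interval -0.07 to 0.38, adjusted p = 0.51 from limma). IRAK1, a kinase that joins MYD88, had a log2 change of -0.11 (95% interval -0.34 to 0.13). The second TNF receptor gene TNFRSF1B was detected on none of the arrays, and the interleukin-1 receptor gene IL1R1 on 1.

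**Figure D3:**
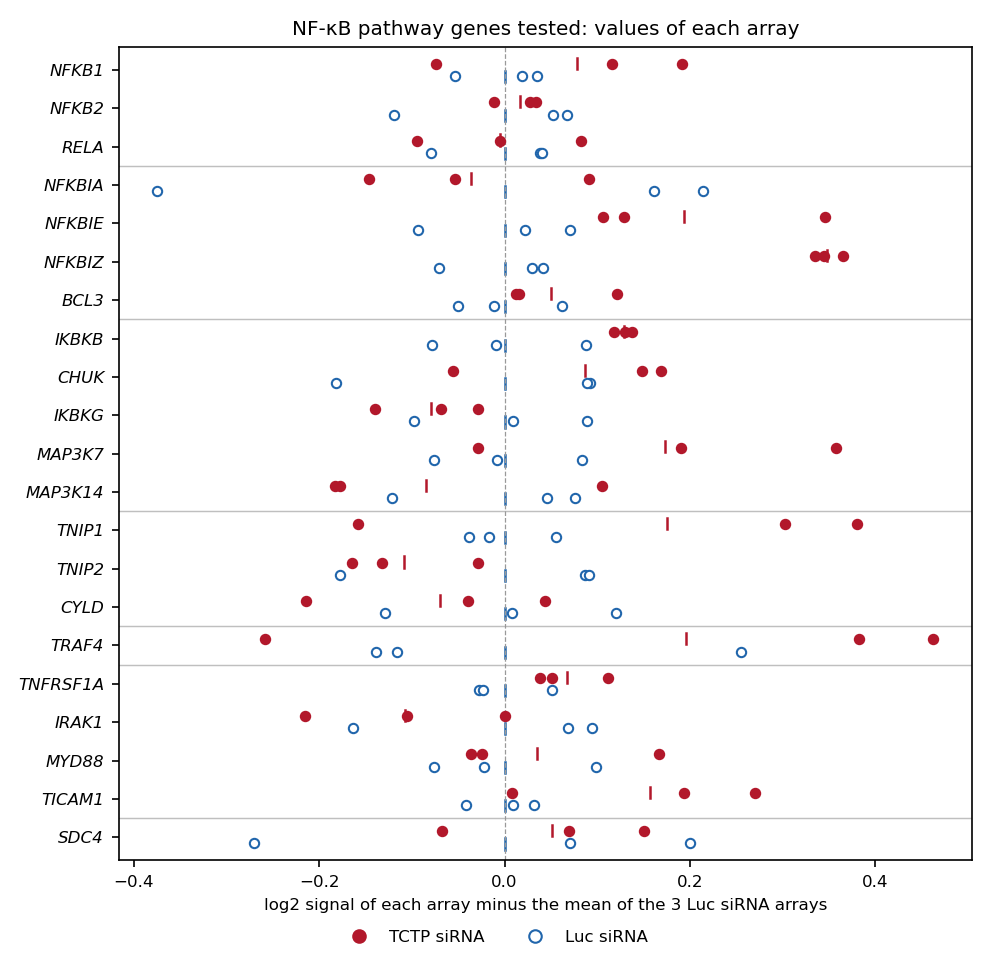
Log2 signal of each array minus the mean of the Luc siRNA arrays (x axis) for the 21 tested NF-κB pathway genes, with filled red points for the 3 TCTP siRNA arrays and open blue points for the 3 Luc siRNA arrays. Short lines mark the group means. The TCTP siRNA points of NFKBIZ lie together to the right of the Luc siRNA points, while those of TRAF4 and TNIP1 lie on both sides.

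The inflammatory targets were mostly below detection in both groups. SDC4, a heparan sulfate proteoglycan of the cell surface, was the only one of 11 that was detected, with 7.01, 7.23 and 7.14 log2 with TCTP siRNA and 7.28, 6.81 and 7.15 with Luc siRNA. Its groups overlapped (log2 change 0.05, 95% interval -0.22 to 0.32, adjusted p = 0.884 from limma). The other 10 are the cytokine genes TNF, IL6 and LTB, the chemokine genes CXCL8, CXCL1, CXCL2, CCL2 and CCL20 and the adhesion molecule genes ICAM1 and VCAM1. Of the 84 values of their 14 probes, none had a detection p under 0.01 and 4 had one under 0.05, all of these for CCL20, on 2 arrays of each group. Their log2 signals lay between 4.68 and 5.86, while the lowest signal of a detected probe was between 5.91 and 6.09 on the arrays. No change is given for these genes, since both groups have only a bound, and a difference between them was not detectable at this sensitivity.

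Of the 21 genes with a probe that were not tested, TNFAIP3, TRAF6 and IL1R1 had a probe detected on 1 array, which was TCTP siRNA replicate 3 for each, the array with the most detected probes. Over the 34 probes of these genes 3 of 204 values had a detection p under 0.01 and 51 had one under 0.05. Without a detection filter all 42 genes could be fitted, and none passed the test (lowest adjusted p = 0.0723 from limma, for NFKBIZ). Nearly all values of the genes added in that fit lay below detection, so that it could hardly show a change in them.

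**Figure D4:**
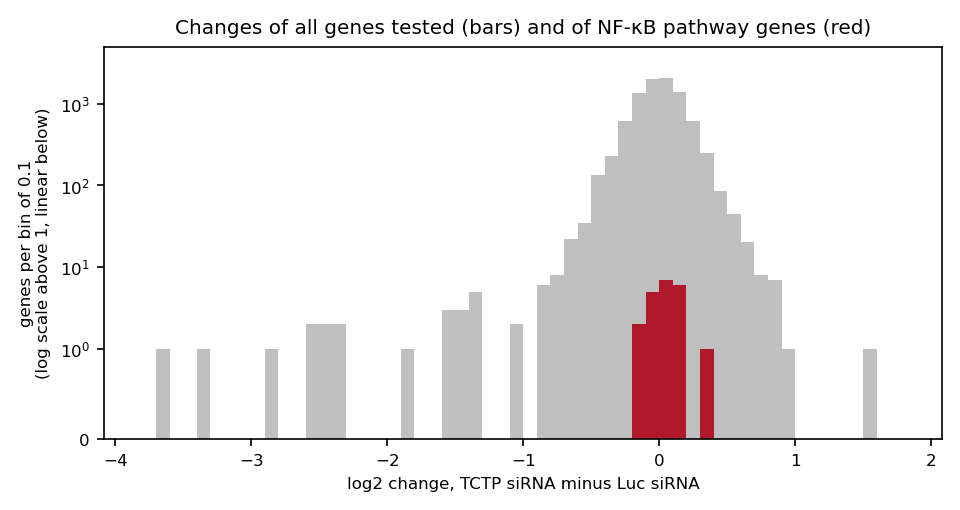
Number of genes (y axis, log scale above 1) in bins of 0.1 log2 units of change, TCTP siRNA minus Luc siRNA (x axis), for all 8968 genes tested in grey and for the 21 NF-κB pathway genes in red. The red bars lie between -0.2 and 0.4 and NFKBIZ is the bar on the right, while the grey bars extend further on both sides.

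Another 119 genes of the pathway were listed from general knowledge, also with earlier results of these data known. Of these 110 had a probe and 57 were tested. At an adjusted p under 0.05 from limma 1 was higher after TCTP siRNA, against 1.04% of all genes, and none was lower, against 1.52%. At an unadjusted p under 0.05 there were 5 (8.77%, against 15.6% of all genes). Over the 57 genes the change had a median of -0.0021 log2 units. By role, an unadjusted p under 0.05 was found for 3 of 6 tested receptors and ligands (TNFRSF12A, TNFRSF21 and TNFRSF10B), 1 of 25 signalling proteins (RIPK2), 2 of 14 targets (RIPK2, which is on both lists, and DUSP1) and 0 of 14 brakes and linear ubiquitin genes such as RNF31, SHARPIN and OTULIN. The median log2 change was 0.28 over the 6 receptors and ligands, -0.01 over the signalling proteins, -0.06 over the targets and -0.03 over the brakes.

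The gene that was higher was TNFRSF12A, which encodes Fn14, the receptor for the TNF-family ligand TWEAK. It had 6.64, 6.67 and 6.62 log2 with TCTP siRNA and 6.06, 6.18 and 6.18 with Luc siRNA, without overlap, and a log2 change of 0.50 (1.41-fold, 95% interval 0.29 to 0.71 log2, adjusted p = 0.0142 from limma). The Luc siRNA signals were close to the limit of detection (detection p of 0.00659, 0.00395 and 0.00527). With background correction by neqc the log2 change was 0.65. The call held under 13 of 19 alternatives. Among the settings that lost it were those without TCTP siRNA replicate 1 (adjusted p = 0.0724) and without Luc siRNA replicate 1, 2 or 3 (0.0765, 0.0642 and 0.0596) and with median scaling (0.098).

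The next genes by p did not pass the test. RIPK2, a kinase that links NOD receptors to NF-κB, had 8.70, 8.65 and 8.71 log2 with TCTP siRNA and 9.08, 9.10 and 8.98 with Luc siRNA, a log2 change of -0.36 (adjusted p = 0.0661 from limma). TNFRSF21, the death receptor DR6, had 9.13, 8.79 and 8.89 with TCTP siRNA and 8.56, 8.61 and 8.18 with Luc siRNA, a log2 change of 0.49 (adjusted p = 0.0732). TNFRSF10B, a receptor for the death ligand TRAIL, had a log2 change of 0.34 (adjusted p = 0.181) with overlapping groups. Without TCTP siRNA replicate 2 TNFRSF21 (adjusted p = 0.048) and TNFRSF10B passed the test.

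The list and the further pathway genes leave out CCL5, CXCL10 and SOD2, which NF-κB is also known to regulate. The counts above therefore do not cover these genes, each of which passed the test. CCL5 and CXCL10, chemokine genes that interferon induces too, were at least 4.10-fold and at least 1.76-fold lower after TCTP siRNA, as their brightest probes were detected with Luc siRNA only, on all 3 arrays, and SOD2 had a log2 change of 0.49 (adjusted p of 3.27e-07, 6.24e-06 and 0.0441 from limma). For these bounds the mean of the Luc siRNA arrays was set against the dimmest detected probe of each TCTP siRNA array, or the gene itself where that was brighter.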

How the data were processed

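The deposited probe intensities, which the authors read from the arrays with BeadStudio, were used without background subtraction, together with the deposited detection p-values. Quantile normalized intensities that the authors also deposited served as an alternative and differed by at most 0.0293 log2 units. Intensities were quantile normalized on the linear scale and set to log2. Of 48803 probes 27578 had 1 gene symbol, 13 had several and 21212 had none in the platform table, and 27541 were matched to current symbols of RefSeq. Probes detected (p under 0.01) in 3 or more of the 6 samples were kept (13484, of which 11439 had 1 symbol), and the brightest stood for a gene. The groups were compared with limma 3.58.1 in R 4.3.3 (lmFit and eBayes), with Benjamini-Hochberg adjustment over 8968 genes and a threshold of 0.05. The code was tested on simulated data. Every listed gene is accounted for, and values are given by array where the results turn on them. The members, the other lists and the motif were chosen with earlier results of these data known. The alternatives were other background corrections, scalings, detection filters, probe choices and thresholds, a moderated trend, a replicate block and leaving out each array. The methods' permutation-based gene ranking was not run. Promoters were searched with Python 3.11.15. The number of arrays limits the precision, and no array was left out of the fit.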

Additional observations from a re-analysis of the deposited data

How the results depend on the processing

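None of the 21 tested genes of the NF-κB pathway passed an adjusted p under 0.05 from limma under any alternative run, nor did any of the 28 tested with a detection p under 0.05 or of the 42 without a filter, while 1 (4.76%) had an unadjusted p under 0.05 in the reported fit. At an adjusted p under 0.10 there was 1 higher, NFKBIZ, against 4.77% of all genes. Of 396 values of these genes under alternatives 14 had another sign, in 7 genes whose log2 change was at most 0.0871 in size. The genes added by looser detection filters lay near or below the limit of detection, where a change could hardly be seen. Fits with 1 array left out have fewer samples, so that a lack of calls there does not show a lack of change. Of all genes, 93 were higher and 136 lower after TCTP siRNA. These counts were 17 and 35 with median scaling, 33 and 56 at an adjusted p under 0.01, 184 and 244 under 0.10, and 30 to 151 and 53 to 173 when 1 array was left out (151 without TCTP siRNA replicate 2, 30 without Luc siRNA replicate 2 and 53 without TCTP siRNA replicate 1). Of the other pathway genes, with 1 higher and 0 lower, 0 were higher with median scaling and under 0.01, 2 were higher and 1 lower under 0.10, and 0 to 3 were higher when 1 array was left out. The cause was not tested. Samples with the same replicate number did not deviate together (correlations -0.08, -0.04 and -0.37), and none correlated best with its own number. The highest correlations were 0.27 for TCTP siRNA replicate 1 with Luc siRNA replicate 2, 0.48 for TCTP siRNA replicate 2 with Luc siRNA replicate 3, and 0.44 for TCTP siRNA replicate 3 with Luc siRNA replicate 1. Whether these samples were handled together is not given in the labels and was not tested. With the replicate block 45 genes were higher and 73 lower, 0 of the other pathway genes were higher (TNFRSF12A, adjusted p = 0.0562) and NFKBIZ had an adjusted p of 0.193. Probes near the limit of detection give only bounds, and 3 arrays a group limit the precision.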

Other observations

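The κB motif was also held by the promoters of 51 tested genes outside the list. Of these 3 were lower after TCTP siRNA (5.88%, against 1.52% of all genes tested) and 0 were higher (against 1.04%), at an adjusted p under 0.05 from limma, and 11 had an unadjusted p under 0.05 (21.6%, against 15.6%). The 3 genes, chosen after their values were seen, were OAS3, IFIH1 and RIGI, with log2 changes of -0.86, -0.86 and -0.45 (adjusted p = 0.000881, 0.00102 and 0.0292). They encode an oligoadenylate synthetase and a pair of sensors of viral RNA, all of which interferon induces. Neither binding to these promoters nor interferon was measured.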
